A study of Homo sapiens with 16 samples.

Results

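TNFRSF12A encodes Fn14, the cell surface receptor of the cytokine TWEAK, TNFSF12 encodes TWEAK itself, and IL32 encodes interleukin 32, a pro-inflammatory cytokine whose gene lies on the same chromosome arm as TNFRSF12A. These 3 genes, of 20007 protein-coding genes in the GENCODE 44 annotation, were chosen by name with earlier results of these data known. Their p-values below therefore do not come from a choice made before the data were seen. H3K27 acetylation was recorded around each of the 3 genes in every sample. H3K27ac ChIP-seq had been performed in 2 established cell lines of human triple-negative breast cancer (TNBC), MDA-MB-231 and Hs578T. Both lines were studied with an intact receptor (CRISPR control) and without it (Fn14 knockout, KO). All groups were first starved of serum for 8 h, and the treated ones then received 10 ng/ml TWEAK, renewed after 24 h, over a total of 48 h. The 8 combinations of line, genotype and treatment had 2 replicates each, which gave 16 lists of peaks, 1 per sample. Per the study's methods, Fn14 KO cells were made with a Cas9 vector and 2 different guides and were identified by western blotting and Sanger sequencing, and the list of genotyping primers speaks of CRISPR clones. Which guide or clone a KO sample carried was not given in the sources used here. The study's methods call the ChIP-seq replicates biological, but the labels did not say whether the replicates of a group were separate cultures, so the p-values measure only the spread between these samples, which may in part be technical.

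TWEAK binds Fn14, a small receptor without a death domain, which recruits TRAF adaptor proteins to its short cytoplasmic tail. Recruitment of TRAF proteins and the cIAP ubiquitin ligases stabilises the kinase NIK, which drives processing of NF-κB2 to p52 in the non-canonical NF-κB pathway, and JNK signalling to AP-1 factors can follow. Fn14 is low in most resting tissue and is raised in many solid tumours. Interleukin 32 is produced by epithelial cells, leukocytes and tumour cells and is a known target of NF-κB signalling. Acetylation of lysine 27 on histone H3 (H3K27ac) marks active promoters and enhancers, so a peak at a gene start is a sign of an active regulatory region and is not itself a measure of transcription.

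The lists held 39544 to 47197 peaks with median fold enrichment from 5.0 to 5.89. The fold enrichment of a peak is the ratio of its ChIP signal to the local background as the authors' peak caller wrote it. Sequencing depth is unknown, because the lists hold no reads. The median −log10 q-value of a list was lower in the 4 MDA-MB-231 Fn14 KO lists, at 5.79 to 7.69, than in the 4 MDA-MB-231 control lists, at 9.44 to 10.8. Start sites of the mesenchymal markers VIM, CD44, CAV1, AXL and ZEB1 carried a peak in all 16 lists. Those of the hormone receptor genes ESR1 and PGR carried none in any list, and FOXA1 had a peak in 2 lists. ERBB2 and GATA3 start sites had a peak in 16 lists. Of the leukocyte markers given here, PTPRC, CD3E and NKG7 had no peak in any list and CD14 had one in 6 lists, all of Fn14 KO cells, at 2.63 to 3.34.

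The sequences below carry the position of the knockout and of the IL32 start. The first is the hg38 window of the TNFRSF12A coding sequence that holds both guide sites, read on the minus strand at chr16:3021598-3021643, with the NGG motif next to each site in capitals. Both sites lie in exon 3 of the 4 exons of TNFRSF12A-201, at 3021624 to 3021643 for the first guide and 3021601 to 3021620 for the second, 1256 and 1233 bp after the RefSeq start. The TNFRSF12A start peak of all 16 lists covered both sites.
TNFRSF12A guide window: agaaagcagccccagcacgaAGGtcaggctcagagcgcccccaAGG
The second sequence is the RefSeq promoter window of IL32 (GRCh38.p14, plus strand, chr16:3065153-3065452), which runs from 250 bases before to 50 bases after the start at 3065403. Capitals mark a cyclic AMP response element (CRE), TGACGTCA, that begins at position -121 relative to the start, and 2 overlapping matches to the NF-κB consensus, which begin at positions -99 and -98.
IL32 promoter window: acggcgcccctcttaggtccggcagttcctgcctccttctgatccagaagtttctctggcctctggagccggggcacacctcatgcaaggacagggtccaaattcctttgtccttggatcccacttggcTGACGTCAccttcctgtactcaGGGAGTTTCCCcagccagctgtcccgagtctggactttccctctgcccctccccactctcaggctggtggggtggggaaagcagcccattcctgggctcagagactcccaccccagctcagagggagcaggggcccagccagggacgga
The motifs searched were the NF-κB consensus by its name, the AP-1 site TGANTCA and the CRE TGACGTCA, each of which reads the same on both strands. Of 35116 RefSeq promoter windows, 14.02% held an NF-κB match, 7.709% an AP-1 match and 1.848% a CRE match. The window above held no AP-1 match. A second IL32 window, at chr16:3065534-3065833, held none of the 3 motifs.

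To ask how the Fn14 locus itself was acetylated with and without the receptor, the TNFRSF12A start was examined first. TNFRSF12A (ENSG00000006327.14, chr16:3018445-3022383, plus strand) had 1 start-site peak in every list, and that peak was less enriched in Fn14 KO cells than in control cells of both lines. A start-site value here is the highest fold enrichment of any peak within 2 kb of the GENCODE gene start. At TNFRSF12A the peak began 1379 to 1598 bp after that start, and only 403 to 622 bp of it lay inside the 2 kb. In MDA-MB-231 control cells, the value was 35.3 and 35.1 untreated and 35.9 and 38.2 with TWEAK. The Fn14 KO cells of this line gave 20.9 and 16.2 untreated and 18.0 and 16.2 with TWEAK. In Hs578T, control cells gave 34.0 and 32.6 untreated and 33.3 and 35.2 with TWEAK, against 21.8 and 22.3 untreated and 19.8 and 22.0 with TWEAK in Fn14 KO cells. Every Fn14 KO list was thus below every control list, and the highest KO value and the lowest control value both came from untreated Hs578T cells.

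**Figure D1:**
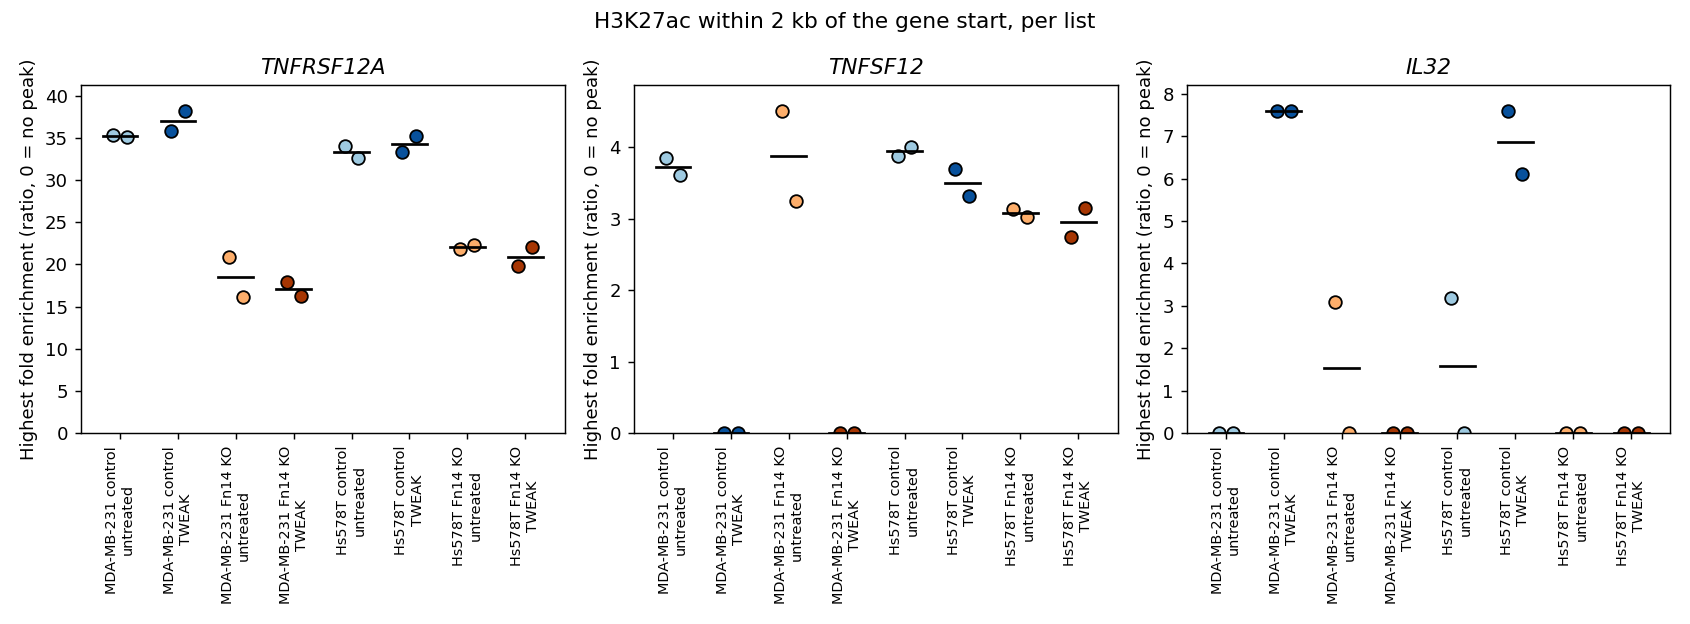
Highest fold enrichment (ratio, vertical axis) of an H3K27ac peak within 2 kb of the start of TNFRSF12A, TNFSF12 and IL32 in the 8 groups, with 1 point per list, a bar at the mean of the 2 replicates and 0 for no peak. TNFRSF12A lies between 32.6 and 38.2 in control lists and between 16.2 and 22.3 in Fn14 KO lists, IL32 is highest in the 4 TWEAK-treated control lists, and TNFSF12 is at 0 in the 4 TWEAK-treated MDA-MB-231 lists.

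The mean start-site value in Fn14 KO cells was 49.3% of that in control cells in MDA-MB-231 and 63.6% in Hs578T. On the scale of log2(fold enrichment + 1), fitted with limma over the 12226 protein-coding genes with a start-site peak in at least 2 lists, TNFRSF12A was lower in Fn14 KO cells by a difference of -0.81 (SE 0.0558, Benjamini-Hochberg adjusted p = 5.84e-06). Under this test 38.8% of all genes were lower in Fn14 KO cells and 2.65% were higher, so the call alone does not set TNFRSF12A apart. The all-gene median difference was -0.15. It was -0.33 in MDA-MB-231 and 0.04 in Hs578T, where TNFRSF12A differed by -0.99 (adjusted p = 1.96e-05; 59.8% of genes lower) and -0.63 (adjusted p = 0.00101; 2.49% of genes lower). The difference between those 2 values was -0.36 (adjusted p = 0.0231), and 49% of genes were called in that direction. Measured from each line's median, the TNFRSF12A difference was therefore -0.65 in MDA-MB-231 and -0.67 in Hs578T. The values within each line, like all single-line and single-treatment contrasts, were chosen after the data were seen.

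The rank of this difference depended on the genes compared. Of the 10565 genes with a start-site peak in all 16 lists, TNFRSF12A had the 15th lowest difference between genotypes, the 59th lowest in MDA-MB-231 and the 35th lowest in Hs578T. Among all 12226 genes tested, where a missing peak counts as 0, it ranked 152nd, 319th and 245th. All 8 Fn14 KO lists lay below all 8 control lists for 66 genes, or 0.54% of those tested. An exact permutation test of the TNFRSF12A fold enrichment itself, two-sided over 1296 arrangements of genotype labels within line and treatment, gave a difference of -15.3 with p = 0.00154, the smallest the design allows, and adjusted p = 0.0231 over 15 tests. The difference was called in all 25 alternative settings, at -0.85 to -0.72. Scaled to a common median fold enrichment per list, the values were 32.6 to 34.8 in control lists and 17.0 to 23 in Fn14 KO lists, and the genotypes did not overlap there either.

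The peak was called in every list, so the genotypes differed in its height and not in its presence. In MDA-MB-231 it was 4504 to 4735 bp wide in control and 4413 to 4705 bp in Fn14 KO lists. In Hs578T it was 4623 to 4944 bp wide in control and 4421 to 4562 bp in Fn14 KO lists. The difference in width was not tested, and how often other peaks differ so was not examined. Its −log10 q-value was 143 to 197 in control and 43.2 to 92.1 in Fn14 KO lists. Merged over lists, it formed a region at chr16:3019824-3024891 that covers the RefSeq start of TNFRSF12A at 3020368 and most of the gene, and also overlaps CLDN6, HCFC1R1 and THOC6, so the value cannot be assigned to TNFRSF12A alone. Among control lists the gene ranked 33rd of 12226 in mean start-site fold enrichment, and among Fn14 KO lists 425th.

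**Figure D2:**
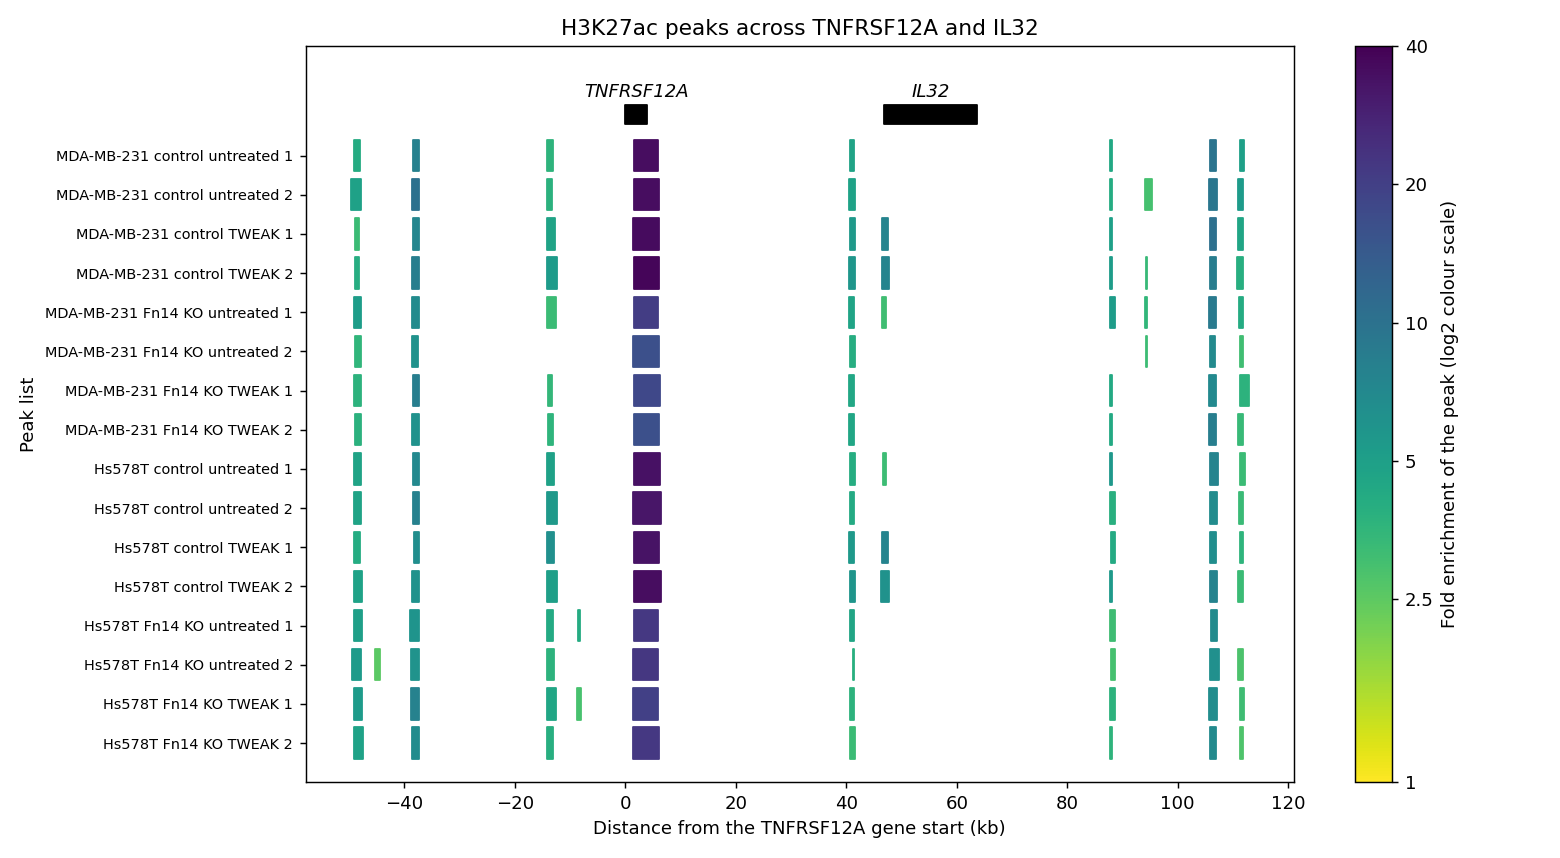
H3K27ac peaks of each list (rows) across TNFRSF12A and IL32, by distance in kb from the TNFRSF12A gene start, with the colour giving the fold enrichment of the peak on a log2 colour scale and black bars for the genes. The TNFRSF12A peak is present in all 16 rows and less enriched in the 8 Fn14 KO rows, while the IL32 start has a peak in 6 rows.

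Regions nearby with a peak in every list were compared next, which leaves out the IL32 start described below. Within 1 Mb on either side, 61 other regions had a peak in all 16 lists. Their median difference between Fn14 KO and control was -0.17, with a range from -0.45 to 0.29, and none was as low as the TNFRSF12A region. Taken by line, 0 of the 61 were lower than the TNFRSF12A region in MDA-MB-231, where the lowest was -0.76, and 0 in Hs578T, where the lowest, at -0.62, was close to the -0.63 of the TNFRSF12A region. Over the 28337 regions with a peak in all 16 lists, the TNFRSF12A region had the 119th lowest difference. By line it was the 111th lowest in MDA-MB-231 and the 618th lowest in Hs578T. The guide sites lie inside this region, and whether editing of the underlying sequence bears on its enrichment was not tested.

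No TWEAK difference passed the threshold at the receptor gene. At the TNFRSF12A start, limma gave a TWEAK difference of 0.05 in control cells (SE 0.0789, adjusted p = 0.685) and of -0.09 in Fn14 KO cells (SE 0.0789, adjusted p = 1). The TWEAK effect in control cells minus that in Fn14 KO cells was 0.14 (SE 0.112, adjusted p = 0.508). The lines did not differ past the threshold either, with MDA-MB-231 minus Hs578T at -0.08 (adjusted p = 0.252). Ordered by mean, the groups ran from TWEAK-treated and untreated MDA-MB-231 control cells (37.0 ± 1.66 and 35.2 ± 0.131, SD, n = 2) through TWEAK-treated and untreated Hs578T control cells (34.2 ± 1.37 and 33.3 ± 1.02) to the Fn14 KO groups. The KO order was untreated and TWEAK-treated Hs578T (22.1 ± 0.301 and 20.9 ± 1.58), then untreated and TWEAK-treated MDA-MB-231 (18.5 ± 3.34 and 17.1 ± 1.23). Neighbours in this order overlapped in their replicates, except the first pair and the step from control to Fn14 KO cells.

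By the likeness of its 16 start-site values, TNFRSF12A was closest to COMMD7 and to ENSG00000285382, which share one set of values (Pearson r = 0.963 over 16 lists), and to WASHC1, a subunit of the endosomal WASH complex (r = 0.957), among 10561 genes compared. COMMD7, a COMM domain protein, had values of 9.03 to 11.9 in Fn14 KO lists and 13.5 to 19.2 in control lists. WASHC1 had 5.55 to 7.01 and 10.1 to 15. The 16 points share their 8 control lists and their 8 KO lists, so these correlations describe mainly the split between genotypes.

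**Figure D3:**
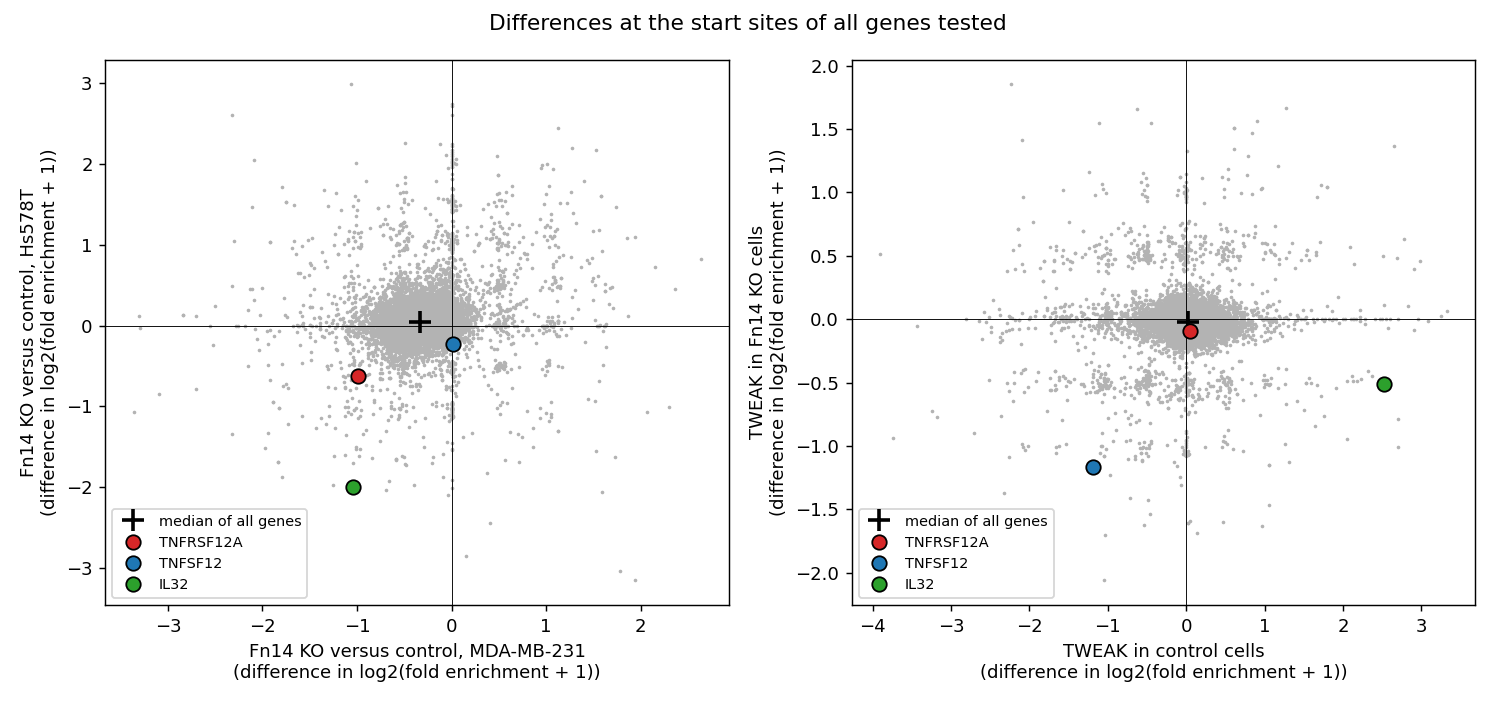
Differences in log2(fold enrichment + 1) at the start sites of 12226 genes (grey points, 1 per gene), with the 3 genes in colour and the median of all genes as a cross. On the left, Fn14 KO versus control in MDA-MB-231 (horizontal) and Hs578T (vertical) places TNFRSF12A at -0.99 and -0.63. On the right, TWEAK in control cells (horizontal) and in Fn14 KO cells (vertical) places IL32 at 2.52 and -0.51 and TNFSF12 at -1.19 and -1.16.

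To examine a neighbour of the receptor gene, the IL32 start was compared next. IL32 (ENSG00000008517.19, chr16:3065297-3082192, plus strand) begins 42.9 kb after the end of TNFRSF12A. Its start carried a peak in all 4 TWEAK-treated control lists, with higher enrichment there than in any other list. The fold enrichment was 7.59 and 7.60 in TWEAK-treated MDA-MB-231 control cells and 7.59 and 6.11 in TWEAK-treated Hs578T control cells. Among the 12 other lists, a peak was present in 1 list of untreated MDA-MB-231 Fn14 KO cells at 3.10 and in 1 list of untreated Hs578T control cells at 3.19. No peak was called in the other 10 lists, and none of the 4 TWEAK-treated Fn14 KO lists had one. The peaks with TWEAK in control cells were 1078 to 1360 bp wide with −log10 q-values from 10.2 to 14.9. In contrast, the lone untreated peaks were 628 and 529 bp wide with values of 2.01 and 2.27. The lowest −log10 q-value of any peak in a list was 1.00 to 1.02.

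Each of the 6 IL32 peaks held the whole promoter window printed above, with its CRE and NF-κB matches, and 4 of them also held the whole second window. The region merged over lists was chr16:3064754-3066191. In limma, with a missing peak as 0, TWEAK raised the IL32 start-site value in control cells by 2.52 (SE 0.481, adjusted p = 0.00778), a direction called for 9.57% of genes, with 5.88% lower. When each list was scaled to a common median, 822 genes were called higher and 1100 lower, against 1170 and 719 unscaled, while IL32 stayed at 2.44 (adjusted p = 0.0099). An alternative, added after the data were seen, set missing peaks to the 5th percentile of fold enrichment in each list. That setting gave 1.08 (SE 0.0794, adjusted p = 3.25e-09). At IL32 most lists then held nearly the same filled value, from 2.71 to 2.95. The adjusted p-values of this setting therefore reflect the filling and not only the spread between replicates. In Fn14 KO cells the TWEAK difference at IL32 was -0.51 (SE 0.481, adjusted p = 1).

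The TWEAK effect at IL32 in control cells minus that in Fn14 KO cells was 3.03 (SE 0.68, adjusted p = 0.0307), and 4.76% of genes were called in this direction. This call was lost, at adjusted p = 0.0535 to 0.0726, when any 1 of 12 lists was left out, and it was kept without either list of untreated MDA-MB-231 Fn14 KO cells or of untreated Hs578T control cells. A pseudocount of 0.1 also ended it, at 6.18 with adjusted p = 0.0706. With missing peaks at the 5th percentile, the difference was 1.09 (SE 0.112, adjusted p = 1.62e-06), on a spread narrowed by the filled values. The 4 TWEAK-treated control lists lay above all 12 others for 622 genes, or 5.09%.

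Fn14 KO and control cells differed at IL32 by -1.52 (SE 0.34, adjusted p = 0.00704). Untreated, the difference was -0.01 (adjusted p = 1; 6.0% of genes lower), and with TWEAK it was -3.04 (adjusted p = 0.00146; 32.7% of genes lower). With missing peaks at the 5th percentile, the genotype difference was -0.55 (adjusted p = 5.21e-07), and with TWEAK it was -1.10 (adjusted p = 2e-09). Both p-values rest on the spread narrowed by the filled values. The pattern by line was similar in direction. TWEAK in MDA-MB-231 control cells gave 3.10 (adjusted p = 0.0258; 4.83% of genes higher), and in Hs578T control cells, where 1 untreated list had the weak peak, 1.93 (adjusted p = 0.164; 2.83% of genes higher). With missing peaks at the 5th percentile these were 1.18 (adjusted p = 3.82e-07) and 0.98 (adjusted p = 9.41e-06). The Hs578T value was then called, but on a spread narrowed by the filled values. The lines themselves did not differ past the threshold in TWEAK effect, at 0.08 for MDA-MB-231 minus Hs578T (SE 0.68, adjusted p = 1). Exact permutation tests of the fold enrichment itself gave p = 0.0556 for TWEAK in control cells, the smallest its 36 arrangements allow, and p = 0.0278 both for the control minus Fn14 KO difference and between genotypes, and none of these IL32 comparisons passed after adjustment over 15 tests (adjusted p = 0.139 for each). No other gene had start-site peaks in exactly the same 6 lists as IL32.

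A weaker region 5.27 kb before the IL32 start, at chr16:3058880-3060025 in the body of MMP25, which encodes a membrane-anchored matrix metalloproteinase, had a peak in all 16 lists. Its fold enrichment in MDA-MB-231 control cells was 4.68 and 4.77 untreated and 5.51 and 5.74 with TWEAK. In Hs578T control cells it was 4.07 and 4.25 untreated and 5.54 and 5.81 with TWEAK, so the 4 treated lists lay above the 4 untreated ones, as they did in 13.9% of all regions. Fn14 KO lists ranged from 3.23 to 4.62 and did not reach the treated control level. In a limma fit over 55219 regions with peaks in at least 2 lists, added after the data were seen, the TWEAK difference in control cells was 0.29 (adjusted p = 0.00981; 18.2% of regions higher). The control minus Fn14 KO difference in TWEAK effect was 0.38 (adjusted p = 0.0217; 13.2% of regions higher).

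The 50 kb windows around TNFRSF12A and IL32 overlap and share 3 regions, so their covered lengths are not independent. Peaks covered 8068 to 11657 bp of the TNFRSF12A window and 6924 to 9761 bp of the IL32 window. TWEAK-treated control cells had on average 1291.5 bp more under peaks in the TNFRSF12A window than untreated ones. The two-sided exact permutation test gave p = 0.0556, the smallest that 36 arrangements allow, and adjusted p = 0.312. How many windows of other genes differ so was not examined. The IL32 region is inside the TNFRSF12A window. In the IL32 window, Fn14 KO minus control cells came to -1076 bp (exact permutation p = 0.0293, adjusted p = 0.312 over 15 tests). None of the 15 comparisons of covered length passed after adjustment. A region counted as gained when, within 1 line and genotype, its peak was called in both treated replicates and in no untreated one. The only region gained in the TNFRSF12A window was that at the IL32 start in MDA-MB-231 control cells, where 5.58% of regions were gained. In the IL32 window, 1 region was lost by the reverse rule, in MDA-MB-231 Fn14 KO cells. It lies at the ZNF205 start (chr16:3112597-3113841), with 3.52 and 3.20 untreated and no peak with TWEAK. In control cells of this line it had a peak in 1 untreated list (2.96) and in 1 treated list (3.31). The share of all regions lost so is not given here.

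**Figure D4:**
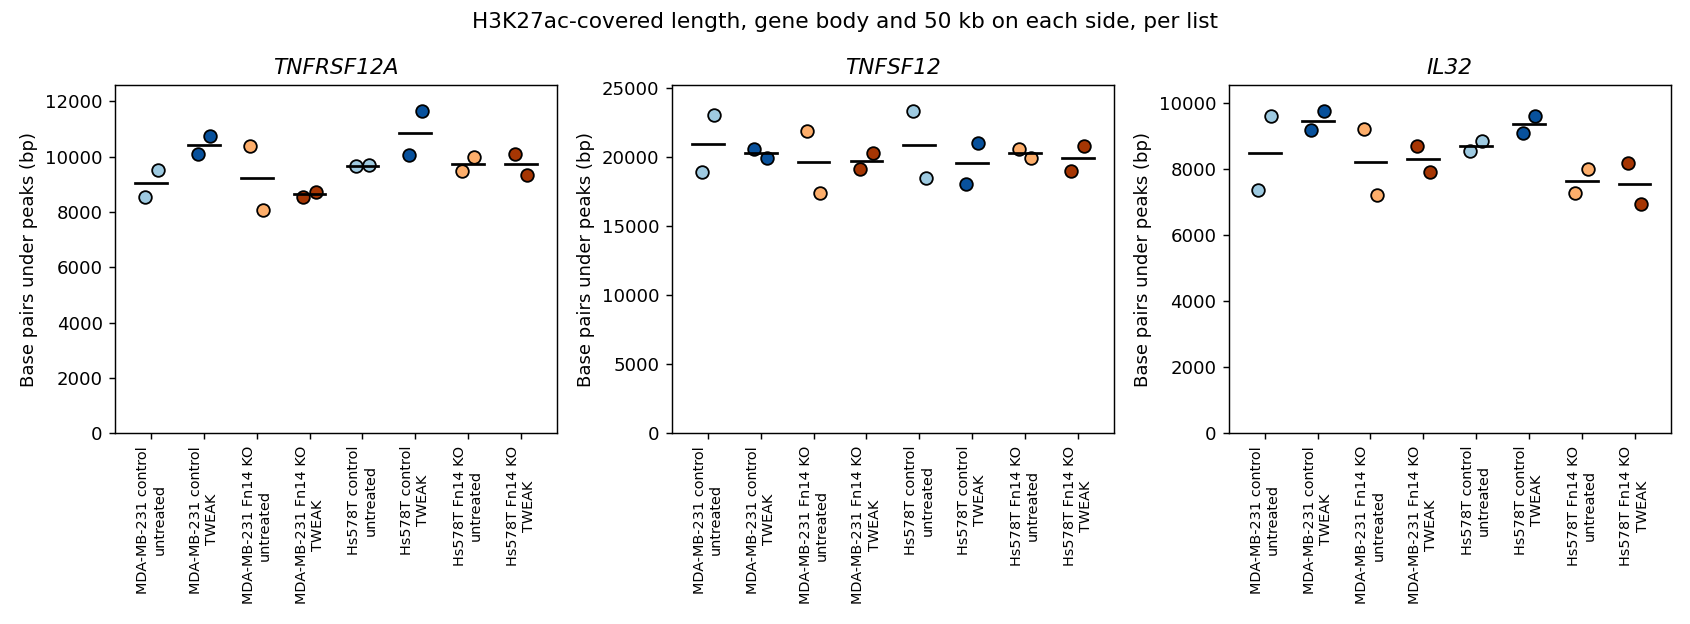
Base pairs under H3K27ac peaks (vertical axis, bp) in the gene body and 50 kb on each side of TNFRSF12A, TNFSF12 and IL32 in the 8 groups, with 1 point per list and a bar at the mean of the 2 replicates. Groups overlap in the TNFSF12 window, which holds 17391 to 23330 bp, and the TWEAK-treated control lists are the highest on average in the TNFRSF12A and IL32 windows.

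To complete the receptor and ligand pair, the gene of TWEAK was examined. TNFSF12 (ENSG00000239697.12, chr17:7548508-7557890, plus strand) carried only a weak and narrow start peak, which was called in 12 lists and missed in the 4 lists of TWEAK-treated MDA-MB-231 cells, in control and Fn14 KO cells alike. In untreated MDA-MB-231 cells the fold enrichment was 3.85 and 3.61 in control lists and 4.51 and 3.25 in Fn14 KO lists. In Hs578T control cells it was 3.88 and 4.0 untreated and 3.70 and 3.32 with TWEAK, and in Hs578T Fn14 KO cells 3.13 and 3.03 untreated and 2.75 and 3.16 with TWEAK. The peak was thus present in all 8 Hs578T lists, treated or not. It was 214 to 732 bp wide, with −log10 q-values from 1.42 to 5.15, against 43.2 to 197 at TNFRSF12A. Merged over lists, it began 153 bp after the GENCODE start of TNFSF12 and also lay within 2 kb of the start of the readthrough gene TNFSF12-TNFSF13.

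**Figure D5:**
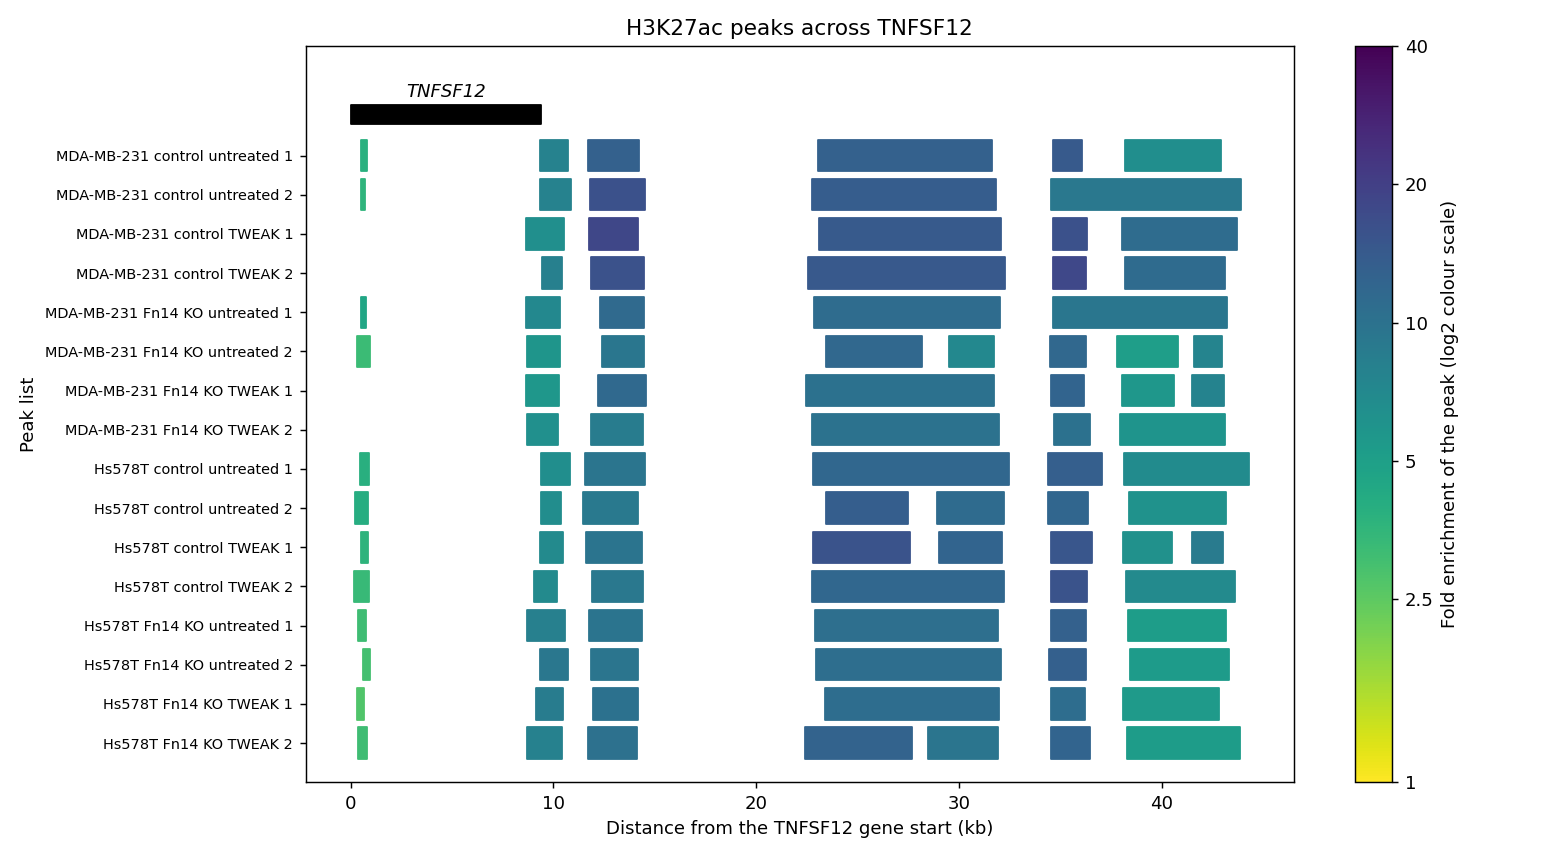
H3K27ac peaks of each list (rows) across TNFSF12, by distance in kb from its gene start, with the colour giving the fold enrichment of the peak on a log2 colour scale and a black bar for the gene. The narrow start peak is missing in the 4 rows of TWEAK-treated MDA-MB-231 cells, and the regions at the end of the gene and beyond have a peak in every row.

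With a missing peak as 0, the TNFSF12 start-site value was lower with TWEAK by limma in control cells (-1.19, SE 0.0792, adjusted p = 4.6e-06; 5.88% of genes lower) and in Fn14 KO cells (-1.16, SE 0.0792, adjusted p = 2.55e-05; 0.123% of genes lower). The TWEAK effects in the 2 genotypes did not differ past the threshold, at -0.03 (SE 0.112, adjusted p = 0.929). MDA-MB-231 was lower than Hs578T by a difference of -0.99 (adjusted p = 1.11e-06; 16.2% of genes lower). These calls rest on the value given to a missing peak. With the 5th percentile of fold enrichment in its place, the TWEAK difference was -0.22 in control cells (adjusted p = 0.077) and -0.17 in Fn14 KO cells (adjusted p = 1), and the line difference was -0.01 (adjusted p = 0.879). A start-site peak lost with TWEAK in both genotypes of MDA-MB-231 was found at 10 genes, or 0.0818%, and 2 of these, TNFSF12 and its readthrough gene, had a peak in all 8 Hs578T lists (0.0164%). The TWEAK effect in MDA-MB-231 minus that in Hs578T was -2.17 (adjusted p = 4.62e-06; 0.376% of genes lower), and -0.21 (adjusted p = 1) with the 5th percentile for missing peaks. In exact permutation tests of the TNFSF12 fold enrichment itself, p was 0.0556 for TWEAK in control cells, 0.167 for TWEAK in Fn14 KO cells and 0.037 between lines, and none passed after adjustment over 15 tests (adjusted p = 0.139, 0.278 and 0.139). Fn14 KO and control cells did not differ past the threshold at TNFSF12 (-0.11, adjusted p = 0.149).

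Downstream of TNFSF12, the acetylated regions belong to other genes. The region over the end of TNFSF12 and the start of TNFSF13, which encodes the cytokine APRIL (chr17:7557135-7559397), had a peak in all 16 lists with a fold enrichment of 5.72 to 9.32. That over SENP3, a SUMO protease gene, reached 8.59 to 18.2, and the wide region over EIF4A1 and CD68 9.91 to 15.5. A further region, over MPDU1, SOX15 and FXR2 (chr17:7582897-7592807), also had a peak in all 16 lists. Its values in control cells were 9.20 to 14.2 untreated and 14.8 to 18.0 with TWEAK, and up to 13.1 in Fn14 KO cells. Such a separation of treated from untreated control lists was found in 13.9% of all regions. None of these regions passed the test for TWEAK in control or in Fn14 KO cells. The SENP3 and EIF4A1 regions were lower in Fn14 KO cells by a difference of -0.26 and -0.28 (adjusted p = 0.0253 and 0.00786; 27% of regions lower). By line, the SENP3 region differed by -0.58 in MDA-MB-231 (adjusted p = 0.00239; 28.2% of regions lower) and by 0.07 in Hs578T (adjusted p = 0.707), and the difference between these was -0.65 (adjusted p = 0.0114; 20.3% of regions called in this direction). The EIF4A1 region differed by -0.35 (adjusted p = 0.0145) and -0.21 (adjusted p = 0.131). The TNFSF13 region, at 0.02 over both lines (adjusted p = 0.849), differed by -0.25 in MDA-MB-231 (adjusted p = 0.055) and 0.29 in Hs578T (adjusted p = 0.045; 9.27% of regions higher).

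A list of 26 genes that act between Fn14 and NF-κB or AP-1 was compared beside the 3 genes. It was also chosen with earlier results of these data known. In this list 25 genes were tested, since CD163, a scavenger receptor for TWEAK, had no start-site peak in any list. With TWEAK in control cells, 10 rose and 1 fell, with a median difference of 0.20 against 0.03 for all genes (9.57% of genes higher, 5.88% lower). Among the adaptors, TRAF2 rose by 1.30 (adjusted p = 7.89e-05), TRAF3 by 0.76 and TRAF1 by 0.43. Of the cIAP genes, BIRC3 rose by 0.60 and BIRC2 by 0.47. Among the NF-κB genes, NFKB2, RELA and the inhibitor NFKBIA were called higher, as were the IKK subunit gene IKBKG and the JNK pathway kinase gene MAP2K7, while FOS, an AP-1 subunit, fell by a difference of -0.89 (adjusted p = 8.66e-05). After scaling to a common list median, 8 were higher and 1 lower, without RELA and MAP2K7.

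In Fn14 KO cells, 0 of the 25 passed in limma in either direction, and 0 had an unadjusted p under 0.05 (0.0982% of all genes higher, 0.123% lower). The TWEAK effect was larger in control than in Fn14 KO cells for 6 of them, TRAF1, TRAF2, TRAF3, BIRC3, NFKBIA and IKBKG, and smaller for FOS (4.76% and 1.92% of genes). Between genotypes, 19 were lower and 0 higher in Fn14 KO cells, at a median of -0.31, where 38.8% of all genes were lower. Under the scaled values 12 were lower, and over all genes 460 were higher and 2238 lower, against 324 and 4740 unscaled. Between the lines, 12 were higher and 3 lower in MDA-MB-231 than in Hs578T (23.8% and 16.2% of genes). The lowest of the 25 was NFKB2 at -0.65, beside -0.81 for the receptor gene TNFRSF12A.

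For interleukin 32, a second list of 10 genes was used, made of its proposed partners and of cytokines linked to it, and chosen in the same way. PRTN3, ITGB6 and TNF had no start-site peak, and 7 genes were tested. With TWEAK in control cells, IL6 rose by 0.34 (adjusted p = 0.0237) and IL18 fell by a difference of -0.34 (adjusted p = 0.0412), where 9.57% of all genes were higher and 5.88% lower. After scaling, 0 were higher, IL6 no longer among them, and 2 lower. In Fn14 KO cells 0 passed in limma in either direction, and 0 had an unadjusted p under 0.05. IL6 and CXCL8 were lower in Fn14 KO than in control cells, at -0.32 and -0.26, or 2 of the 7, where 38.8% of all genes were lower. After scaling, CXCL8 lost its call and IL18 was called higher in Fn14 KO cells, at 0.24 (adjusted p = 0.0314).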

How the data were processed

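Per the study's methods, the authors trimmed reads, used Bowtie2 for alignment to hg38, called peaks per sample by MACS2 after subtraction of input and removed blacklisted regions with bedtools; tool versions were not given in the sources used here. Each deposited list holds, per peak, a score, the fold enrichment (a ratio), and the −log10 p-value and −log10 q-value, as the authors' caller wrote them. From these lists, peaks within 2 kb of the GENCODE 44 start and within the gene body extended by 50 kb were recorded. Start-site values were fitted as log2(fold enrichment + 1), with no peak as 0, with limma 3.58.1 (R 4.3.3, robust empirical Bayes, 8 group means, all 16 lists) over the 12226 of 20007 genes with a peak in at least 2 lists, and p-values were Benjamini-Hochberg adjusted at a threshold of 0.05. Covered length was compared by exact permutation within strata. Differences are on the log2(fold enrichment + 1) scale, which understates changes between low values of called peaks. Where a peak is missing, the 0 gave larger TWEAK differences than the 5th percentile did at IL32 and TNFSF12 in control cells. On simulated data for Fn14 KO versus control (12226 genes), 181 of 200 genes changed by 1 on the log2 scale were recovered, with 9 false calls. The simulation had no missing peaks, no line or treatment differences and no shift over all genes. It therefore does not measure the rate of false calls in these data. Genes named are the 3 chosen, those most like them over the 16 lists, those at regions in the windows, and the fixed lists. The genes and lists were chosen with earlier results of these data known. Alternatives covered the pseudocount, filters, scaling, peak strength, windows, a replicate block and leaving out each list. Guide positions were found by an exact match to hg38, and promoter windows came from RefSeq, which held IL32 among the 3 genes.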

Additional observations from a re-analysis of the deposited data

Results flagged for a closer look

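The TWEAK effect at the IL32 start differed between genotypes, at 3.03 for control minus Fn14 KO cells (limma, adjusted p = 0.0307), with all 4 TWEAK-treated control lists above the 12 others. The call was lost when any 1 of 12 lists was left out. The Fn14 KO difference at the TNFRSF12A start was larger in MDA-MB-231 than in Hs578T, at -0.358 for MDA-MB-231 minus Hs578T (adjusted p = 0.0231), where the median of all genes was -0.376. After scaling to a common list median it was -0.21 (adjusted p = 0.195) beside an all-gene median of -0.24. The TWEAK effect at the TNFSF12 start differed between the lines, at -2.17 for MDA-MB-231 minus Hs578T (adjusted p = 4.62e-06), and was -0.21 (adjusted p = 1) when a missing peak was given the 5th percentile of its list. Groups of 2 samples were too small for a test of single outlying samples.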

How the results depend on the processing

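Depth is unknown and each group had 2 lists, so precision rests on these few lists. A missing peak says only that a region did not pass the caller's threshold, which limits TNFSF12 and the untreated IL32 values most. The TNFRSF12A difference between genotypes was called under all 25 alternatives. Of 755 recomputed values, 666 kept their direction and side of the threshold (or, for counts, stayed within 1.5 times). In 21 the p-value rose past the threshold, in 15 it fell below it, 39 changed sign and 14 counts moved. The p-value compared was adjusted for start sites but unadjusted for covered length, where no comparison was called after adjustment. The cause of the changes below was not tested.

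With missing peaks set to the 5th percentile, TNFSF12 lost its calls for TWEAK in control cells (-0.22), for TWEAK in Fn14 KO cells (-0.17) and between lines (-0.013), and 0 genes (27 otherwise) were called for TWEAK in Fn14 KO cells, where limma gave an unadjusted p under 0.05 for 318 genes. That count was also 0 in limma among genes with a peak in all 16 lists (257 with an unadjusted p under 0.05) and 83 with peaks above the pooled median q-value. Scaling each list to its median gave 2698 calls between genotypes against 5064, and turned the TNFRSF12A TWEAK difference in control cells to -0.015 (adjusted p = 0.932). A pseudocount of 0.1 ended the call for the IL32 TWEAK effect, control minus Fn14 KO (6.18, adjusted p = 0.0706).

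For covered length (unadjusted exact permutation p), a 10 kb window turned the TNFRSF12A TWEAK difference in Fn14 KO cells to 108.25 bp and its control minus Fn14 KO difference to -79.5 bp, turned the IL32 TWEAK difference in Fn14 KO cells to -47.25 bp and brought the IL32 control minus Fn14 KO difference to 1236.5 bp (p = 0.017). A 100 kb window turned the IL32 TWEAK difference in Fn14 KO cells to -199.75 bp and the IL32 line difference to -226.62 bp. It gave an IL32 genotype difference of -1819 bp (exact permutation p = 0.0679), against -1076 bp (p = 0.0293) with 50 kb. With peaks above the pooled median q-value, the TNFRSF12A control minus Fn14 KO difference was 2475 bp (exact permutation p = 0.00463), its genotype difference -1156 bp (p = 0.0432), the IL32 control minus Fn14 KO difference 1586.5 bp (p = 0.037) and the IL32 line difference -105.0 bp. Scaled to the covered length of each list, the TNFRSF12A control minus Fn14 KO difference was 1695.5 bp (exact permutation p = 0.017), the line differences were 848 bp for TNFRSF12A, 3220.0 bp for TNFSF12 and 1615 bp for IL32, and the TNFSF12 TWEAK difference in Fn14 KO cells was 436 bp. Gains and losses of regions were counted once per line and genotype. When a peak had to cover at least 50% of a region, this count was 3 against 1 in the TNFRSF12A window. The IL32 start region was then gained in control cells of both lines, and the region at chr16:2968732-2970916 was lost in MDA-MB-231 control cells. In the TNFSF12 window the count was 0 against 2, which were the start region, lost in both genotypes of MDA-MB-231.

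Replicate numbers did not pair the samples: replicate differences of groups of a line correlated at -0.1 to 0.11. With a replicate block, the IL32 genotype difference in covered length was -1076 bp with unadjusted exact permutation p = 0.0781, against 0.0293 without the block. The IL32 start-site difference in TWEAK effect kept its call (limma, adjusted p = 0.046). No other comparison of the 3 genes moved across the threshold with the block.

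With 1 list left out in turn, start-site genes called ranged from 1224 to 2250 for TWEAK in control cells (1224 without TWEAK-treated MDA-MB-231 control replicate 2) and from 32 to 109 for TWEAK in Fn14 KO cells, where leaving out any Fn14 KO list but untreated Hs578T replicate 1 moved the count by more than 1.5 times. At start sites, the IL32 control minus Fn14 KO difference ranged from 2.51 to 3.54 and its line difference from -0.23 to 0.29. The TNFRSF12A line difference ranged from -0.13 to -0.041 and the TNFSF12 genotype difference from -0.15 to -0.061, each called only without untreated MDA-MB-231 Fn14 KO replicate 1. The TNFSF12 control minus Fn14 KO difference ranged from -0.12 to 0.068. Covered length in the TNFRSF12A window ranged from -875 to 278.5 bp for TWEAK in Fn14 KO cells, 1013 to 2166.5 bp for control minus Fn14 KO, -954.75 to -378 bp between genotypes and -956 to -379 bp between lines. In the TNFSF12 window it ranged from -2246 to 200.0 bp and -1252 to 969.5 bp for TWEAK in control and Fn14 KO cells, -2105 to 341 bp for their difference, -1158 to 64.6 bp between genotypes and -613 to 610 bp between lines. In the IL32 window it ranged from -486 to 514.5 bp for TWEAK in Fn14 KO cells and from -1359 to -794 bp between genotypes. That genotype difference was not called after adjustment. Its unadjusted p-value also rose past the threshold without untreated MDA-MB-231 control replicate 2, untreated MDA-MB-231 Fn14 KO replicate 2 or TWEAK-treated Hs578T control replicate 2. IL32 and TNFSF12 could not be fitted among genes with a peak in all 16 lists, nor TNFSF12 above the pooled median q-value.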
